A study of Mus musculus with 4 samples.

Results

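The 7 genes described here encode 3 chains of the CD3 complex and the constant regions of T cell receptor chains: *Cd3d*, *Cd3e*, *Cd3g*, *Trac*, *Trbc1*, *Trbc2* and *Trdc*. They were chosen by name and followed through a pair of gene lists that the authors made for clusters of single cells. All 7 were among the 1679 genes of the list for cell types, and 5 of them were among the 2629 genes of the list for subclusters of group 2 innate lymphoid cells (ILC2s). The lists together held 3488 genes. In T cells, the receptor is a pair of chains that binds antigen (alpha with beta, or gamma with delta), and each chain has a constant region, encoded here for the alpha, beta and delta chains. The receptor chains have short tails, and the CD3 chains bound to them carry the signal into the cell. ILC2s, which release type 2 cytokines, work without an antigen receptor, so these genes are commonly used to tell T cells from ILC2s.

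Cells were taken from liver or lung of wild-type BALB/c mice, 8-week-old males, given rIL-33 (recombinant IL-33, a daily dose of 0.5 µg) or PBS into the peritoneum for 5 days. Tissue of several mice was pooled, and the 4 groups (PBS lung, PBS liver, rIL-33 lung, rIL-33 liver) had 1 library each. The sort kept CD127+Thy1+ST2+ cells and removed cells stained for lineage markers, and among these were CD3e and TCRb, the proteins of *Cd3e* and of the beta chain genes. The lists were made from all 4 libraries together, so neither treatment nor organ was compared, no test over samples could be run, and the tables give neither the depth nor the number of cells behind a share.

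A listing is 1 gene in the list of 1 cluster, and the authors' lists hold genes with a higher average in that cluster than in all other cells. Each listing comes with a pair of percentages, namely how many of the cluster's cells, and how many of the cells outside it, had a value above 0. In the cell type table the members had 52 listings of 147 possible pairs of gene and type (35.4%), where 12.5% of all pairs were listed. They fell in 10 of 21 cell types, and 11 types listed none. The types had been named by the authors from their genes, so a member in the list of a T cell type is partly what gave that type its name and supports nothing further. In 9 of the 52 listings the share was smaller inside the type than outside (16.3% of all listings). In the ILC2 subcluster table the members had 9 listings of 70 pairs (12.9%), where 14.2% of all pairs were listed, so that their share was near that of all genes.

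The CD3 chains had the widest pattern. *Cd3d*, *Cd3e* and *Cd3g*, the delta, epsilon and gamma chains of CD3, were listed for the same 9 types: CD4, Treg (regulatory T cells), CD8_Naive, CD8_Effector, the gamma delta T cell types gdT_Naive, gdT_TypeI, gdT_TypeIII_CD163l1 and gdT_TypeIII_ITGAE, and ILC3 (group 3 innate lymphoid cells). These types held 30.75% of all cells, a size solved from the shares themselves.

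*Cd3d* lies at chr9:44981786-44987339 on the plus strand (GRCm38). *Cd3d* was found in 99.8% of CD8_Naive cells and 83.1% of all other cells, in 98.4% against 81.6% for gdT_TypeI, in 97.6% against 82.6% for gdT_Naive, in 97.5% against 83.3% for gdT_TypeIII_CD163l1 and in 97.2% against 83.1% for CD4. The shares were 93.9% against 83.3% in Treg, 93.6% against 83.4% in gdT_TypeIII_ITGAE and 91.1% against 83.5% in CD8_Effector. ILC3 alone among its types had a smaller share inside, 81.9% against 83.6%.

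*Cd3e* lies at chr9:44998740-45009627 on the minus strand. *Cd3e* was found in 99.2% of gdT_TypeIII_ITGAE cells, 98.8% of gdT_TypeIII_CD163l1, 98.6% of CD8_Naive, 97.4% of gdT_TypeI, 97.0% of gdT_Naive, 96.2% of CD4, 96.1% of CD8_Effector, 96.0% of Treg and 91.4% of ILC3. Outside each of these types, taken singly, it was found in 81.6% to 83.4% of cells. Every type thus lay above its outside share, by 8.1 to 15.9 percentage points.

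*Cd3g* lies at chr9:44969572-44980431 on the minus strand, head to head with *Cd3d*, with 1355 bases between both starts. Its shares inside were the most even of the 3 chains. They ran from 97.0% in CD8_Effector and 97.1% in ILC3 to 99.7% in gdT_TypeIII_ITGAE and 99.8% in gdT_TypeIII_CD163l1, against 83.7% to 85.4% outside. *Cd3g* had the largest share of the 3 chains in 8 of the 9 types, and *Cd3d* had it in CD8_Naive. The chains differed least in CD8_Naive, by 1.2 points, and most in ILC3, where *Cd3g* exceeded *Cd3d* by 15.2 points. These are shares of cells and not levels per transcript length, so they do not rank the amounts of the chains.

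**Figure D1:**
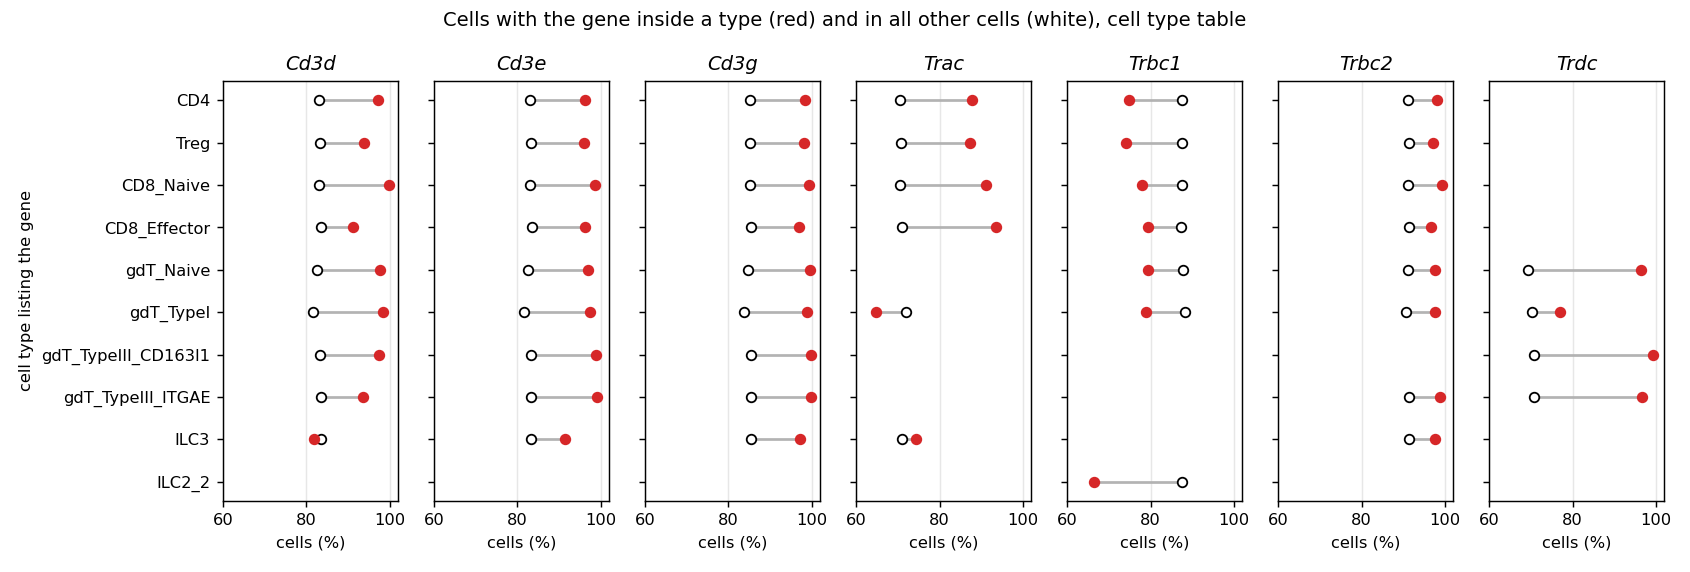
Shares of cells with each member inside a cell type (red) and in all other cells (white), in percent, for the 10 types that listed any member; the horizontal axis starts at 60%. The CD3 chains and *Trbc2* sat above their outside shares with 1 exception, *Cd3d* in ILC3, while *Trbc1* sat below in all 7 of its types.

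The 150 bases before the RefSeq start of each CD3 gene are shown because the 3 genes share their set of types and neighbour each other on chromosome 9. They are from RefSeq (GRCm38.p6), whose table held 3 of the 7 members, and capitals mark GGAA, the core that ETS factors bind, and GATA, on either strand.

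Cd3d, chr9:44981636-44981785, plus strand: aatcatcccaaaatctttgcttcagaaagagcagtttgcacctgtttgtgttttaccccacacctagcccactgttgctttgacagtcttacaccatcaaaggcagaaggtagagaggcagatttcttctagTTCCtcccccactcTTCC
Cd3e, chr9:45009612-45009761, minus strand: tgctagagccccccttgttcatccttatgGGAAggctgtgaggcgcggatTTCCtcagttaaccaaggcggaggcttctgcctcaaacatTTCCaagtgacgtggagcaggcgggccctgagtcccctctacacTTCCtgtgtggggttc
Cd3g, chr9:44980432-44980581, minus strand: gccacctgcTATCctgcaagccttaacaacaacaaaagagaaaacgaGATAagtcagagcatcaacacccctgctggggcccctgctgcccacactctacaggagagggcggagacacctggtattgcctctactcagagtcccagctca

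GGAA occurred 4 times before *Cd3e*, 2 times before *Cd3d* and 0 times before *Cd3g*, and 80.8% of 32851 windows of this length held it. GATA occurred 2 times before *Cd3g* and 0 times before the others (35.7% of windows). The E-box CANNTG occurred 2 times before *Cd3g* and 1 time before each of the others (47.7%). Neither TGTGGT nor TGCGGT, letters that RUNX factors bind, was in any of the 3 windows (11.4%). Each motif was searched on both strands, and a match describes only the letters. The RefSeq start of *Cd3e* lies inside the gene as GENCODE places it, so the last 16 bases of its window, which hold 1 of the 4 GGAA matches, are within the coordinates given for *Cd3e*.

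The alpha constant gene *Trac* (chr14:54220521-54224206, plus strand) was listed for all 4 types named for alpha beta T cells. *Trac* was found in 93.6% of CD8_Effector cells against 70.9% of other cells, in 91.2% against 70.5% for CD8_Naive, in 87.8% against 70.5% for CD4 and in 87.3% against 70.7% for Treg. These 4 types had shares 16.6 to 22.7 points above those outside, and in CD8_Effector and CD4 the difference was the 2nd largest of the 94 and 131 genes listed. *Trac* was also listed for ILC3, at 74.3% against 71.0%, and for gdT_TypeI, where the share was smaller inside, at 64.8% against 71.9%. It was listed for 0 of the other 4 gamma delta types.

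The delta constant gene *Trdc* (chr14:54142851-54148868, plus strand) lies upstream of *Trac*, with 71653 bases between them. *Trdc* was listed for 4 types, all named for gamma delta T cells. It was found in 99.3% of gdT_TypeIII_CD163l1 cells against 70.6% of other cells, in 96.7% against 70.6% for gdT_TypeIII_ITGAE and in 96.4% against 69.3% for gdT_Naive. In gdT_Naive its difference of 27.1 points was the largest of 149 genes listed. The fourth type, gdT_TypeI, stood apart at 77.0% against 70.2%, a difference of 6.8 points that ranked 61 of 145. gdT_TypeI was also the type that listed all 7 members, *Trac* and *Trbc1* with smaller shares inside.

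The beta constant genes *Trbc1* (chr6:41538218-41539881) and *Trbc2* (chr6:41546730-41548352), both on the plus strand with 6849 bases between them, moved in opposite directions. T cells use 1 or the other for the beta chain. *Trbc2* was found in 99.3% of CD8_Naive cells, 98.7% of gdT_TypeIII_ITGAE, 98.1% of CD4, 97.7% of ILC3 and of gdT_TypeI, 97.5% of gdT_Naive, 97.2% of Treg and 96.6% of CD8_Effector. Outside each of these types, taken singly, it was found in 90.6% to 91.4% of cells, so all 8 types lay above, by 5.2 to 8.1 points.

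*Trbc1* was found in 79.3% of CD8_Effector and of gdT_Naive cells, 79.0% of gdT_TypeI, 77.9% of CD8_Naive, 74.7% of CD4, 74.0% of Treg and 66.4% of ILC2_2, the second ILC2 type. Outside each of these types, taken singly, it was found in 87.3% to 88.3% of cells. All 7 of its listings thus had a smaller share inside, with differences of -8.0 points in CD8_Effector to -21.2 points in ILC2_2, although the lists hold genes with a higher average inside. This was not particular to *Trbc1*: 76.3% of all genes listed for CD4 had a smaller share inside, 74.5% for gdT_Naive, 60.6% for CD8_Effector, 57.1% for CD8_Naive, 53.0% for ILC2_2, 51.3% for Treg and 27.6% for gdT_TypeI.

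*Trbc1* and *Trbc2* share most of their coding sequence, which bears on how their reads can be told apart. The coding parts have 521 bases each in the reference transcripts, and 498 of these were the same (95.6%), with a longest shared run of 259 bases. Of the 23 differing bases, 19 lie in the last 120 coding bases, shown here with the differing bases in capitals.

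Trbc1, coding bases 402 to 521: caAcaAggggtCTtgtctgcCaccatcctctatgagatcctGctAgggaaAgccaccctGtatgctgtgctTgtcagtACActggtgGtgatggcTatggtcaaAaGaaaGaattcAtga
Trbc2, coding bases 402 to 521: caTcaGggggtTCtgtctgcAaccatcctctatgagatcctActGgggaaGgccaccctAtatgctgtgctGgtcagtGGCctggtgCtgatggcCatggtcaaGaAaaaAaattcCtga

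The 3' untranslated parts, of 216 and 171 bases, were the same at 45.7% of 230 aligned columns, with a longest shared run of 6 bases. The libraries read transcript 3' ends, and reads within the shared coding run cannot be assigned to 1 of the genes. How many such reads were counted for either gene was not tested, so the split between *Trbc1* and *Trbc2* is uncertain.

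**Figure D2:**
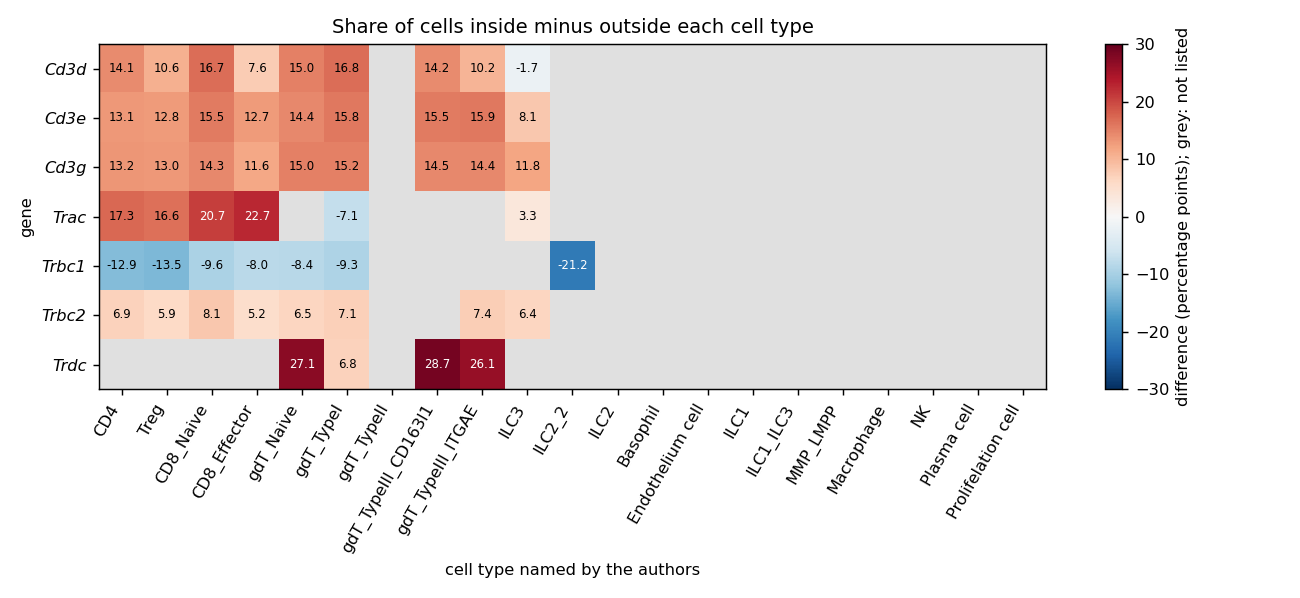
Difference between the share of cells inside and outside each of the 21 cell types, in percentage points, for each member; grey cells were not listed. *Trac* was highest in types named CD4, Treg and CD8, *Trdc* in types named gdT, and *Trbc1* was negative in each of its 7 types.

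By type, CD4, CD8_Effector, CD8_Naive and Treg each listed 6 members, all but *Trdc*, where 7.8%, 5.6%, 11.8% and 8.93% of all genes were listed. gdT_Naive listed 6, all but *Trac* (8.87% of all genes), and gdT_TypeI listed 7 (8.64%). gdT_TypeIII_ITGAE listed the CD3 chains, *Trbc2* and *Trdc* (11.7%), and gdT_TypeIII_CD163l1 the CD3 chains and *Trdc* (11.4%). ILC3 listed 5 members, the CD3 chains, *Trac* and *Trbc2* (9.11%), and ILC2_2 listed *Trbc1* alone (11.9%).

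gdT_TypeII, the fifth gamma delta type, listed 0 of the 7 members and 0 of the gamma constant and variable genes. Its list held 28 genes (1.67% of all genes), so a count of 0 is near that of any genes. It listed 3 of 11 ILC2 markers, *Gata3*, *Il1rl1* and *Areg*. ILC3, a type named for innate cells, listed 5 members. A missing listing gives no level, and whether these types hold other cells than their names say was not tested.

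A gene that is not listed for a type has no value there, but the types without a listing can be solved together. The share of all cells with a gene follows from each of its listings, and for every member of the cell type table the listings gave the same share within 0.0327 points (SD over listings, n = 4 to 9). *Trbc2* was found in 91.42% of all cells, *Trbc1* in 87.22%, *Cd3g* in 85.49%, *Cd3d* in 83.54%, *Cd3e* in 83.48%, *Trac* in 71.05% and *Trdc* in 70.97%. *Cd3d* and *Cd3e* were close in this order, as were *Trac* and *Trdc*. The values that fit all listings within rounding and the error of the sizes ran from 83.52% to 83.55% for *Cd3d* and 83.47% to 83.49% for *Cd3e*, and from 71.02% to 71.1% for *Trac* and 70.95% to 70.99% for *Trdc*, so they did not overlap. These limits cover neither counting error nor libraries.

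In the 12 types without a listing of a CD3 chain, the shares were 77.72% ± 0.13 for *Cd3d*, 77.49% ± 0.13 for *Cd3e* and 79.53% ± 0.13 for *Cd3g* (error from rounding and from the solved sizes). These types include ILC2, NK, Macrophage, Basophil and Endothelium cell. *Trac* was found in 69.92% ± 0.1 of cells in the 15 types without it, *Trdc* in 67.23% ± 0.097 in 17 types and *Trbc2* in 88.75% ± 0.11 in 13 types. *Trbc1* was found in 91.1% ± 0.11 of cells in the 14 types that did not list it, more than in any type that did.

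The shares of *Cd3e*, *Cd3g* and *Trdc* in ILC2s were far apart between the tables, while for the beta constant genes the lower limit in the cell type table lay near the share in the subcluster table. Even if every cell of the types not listing a gene, other than ILC2 and ILC2_2, had it, the share in both ILC2 types together could not fall below 65.2% for *Cd3e*, while the ILC2 subcluster table gave 5.76% of all ILC2s. For *Cd3g* these values were 68.4% and 32.9%, for *Trdc* 42.0% and 7.72%, and for *Trbc2* 82.2% and 81.8%. For *Trbc1*, ILC2 alone had at least 85.1%, against 79.6% of all ILC2s. These are lower limits, so a close pair does not show that the shares themselves are close. The lower limit was 65.6% for *Cd3d* and 47.8% for *Trac*, which no subcluster listed. A gap of this direction was not limited to the members. Of the 815 other genes in both tables, 188 had a lower limit in the ILC2 types above their share in the subcluster table, 4 had a highest possible share below it, and 623 could not be decided. The authors left out cells with markers such as Cd3 before subclustering, and whether this step made the gap was not tested. They scaled the counts of each cell to a common total and took logs, and whether these or integrated values lie behind each table was not stated, so a share in the cell type table is not read here as the share of cells with a transcript.

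**Figure D3:**
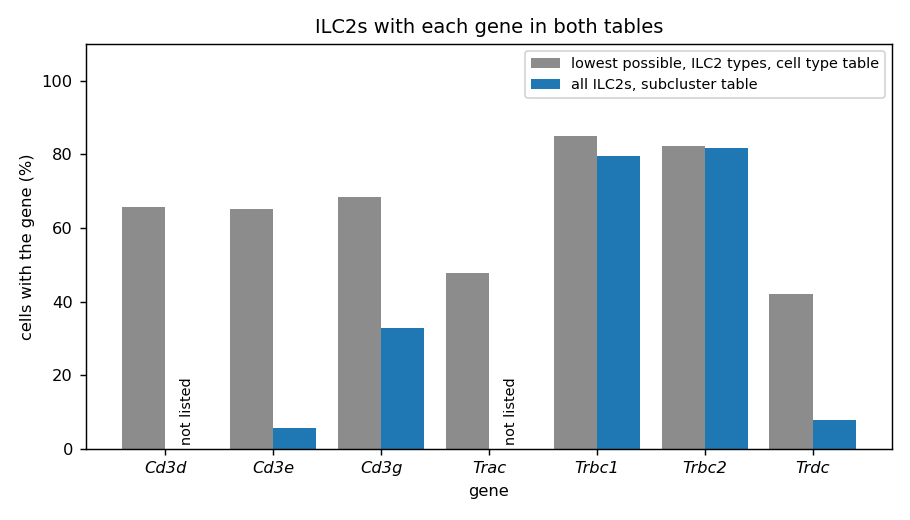
Lowest possible share of cells with each member in the ILC2 types of the cell type table (grey; ILC2 alone for *Trbc1*) and share of all ILC2s in the subcluster table (blue), in percent. *Cd3e*, *Cd3g* and *Trdc* in the subcluster table were far below their lower limits. *Trbc1* and *Trbc2* lay near theirs, which does not show that their shares in both tables are alike.

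Within ILC2s, the members fell in 5 of 10 subclusters, and subcluster 5 listed 4 of them (38% of all genes were listed for it). *Cd3e* was found in 32.0% of subcluster 5 cells and 4.7% of all other ILC2s, 6.81 times the share. *Trdc* was found in 25.6% against 7.0%, 3.66 times the share, and *Cd3g* in 39.5% against 32.6%. *Trbc1* went the other way, at 45.0% against 81.0%. *Cd3d* and *Trac* were listed for 0 subclusters.

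Subcluster 5 held 3.874% of the ILC2s and had smaller shares for most of its genes. Of its 1000 listings, 978 (97.8%) had a smaller share inside, with a median ratio of 0.453, and *Trbc1* had a ratio of 0.556. Only 22 genes had a larger share inside, and *Cd3e*, *Trdc* and *Cd3g* ranked 2, 7 and 14 among them. The others included *Ms4a4b* at 49.6% against 10.2%, *Nkg7*, a gene of cytotoxic lymphocytes, at 26.3% against 12.9%, *Txk*, a kinase of T cells, at 42.8% against 17.5%, *Cd28*, the costimulatory receptor, at 26.8% against 4.7%, and *Lck*, the kinase that phosphorylates CD3 chains, at 27.8% against 16.8%. The 22 also held the heat shock genes *Hspa1a* (26.5% against 17.4%) and *Hspa1b* (28.9% against 21.1%) and the immediate early gene *Egr1* (26.1% against 24.3%). Some other genes of both kinds had smaller shares inside, such as *Dnaja1* (61.0% against 93.4%) and *Ier2* (44.1% against 79.8%). These heat shock and immediate early genes were chosen after their values were seen, and the part of cell stress in the result was not tested. *Cd28* was the 1 of 6 costimulatory and adhesion receptors listed for subcluster 5. *Txk* and *Lck* were 2 of 6 kinases and adapters listed for subcluster 5. The other 4 had smaller shares inside: *Fyn* at 20.2% against 50.1%, *Lcp2* at 27.8% against 66.5%, *Ptpn22* at 38.4% against 68.1% and *Grap2* at 26.3% against 45.5%. Neither *Txk* nor *Lck* was particular to subcluster 5. Subcluster 4 listed *Lck* at 40.3% against 14.9% and *Txk* at 42.4% against 16.1%, and subcluster 7 listed *Txk* at 45.0% against 18.1%. Markers of NK cells and ILC1s (0 of 7), ILC3s (0 of 4), B cells (0 of 6) and ILC2s (0 of 11) were not listed for subcluster 5. This was not particular to subcluster 5 for NK cell, ILC1 and ILC3 markers, which no subcluster listed, nor for B cell markers, of which 1, *Cd79b*, was listed for subcluster 1. Whether T cells remained among these cells was not tested.

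**Figure D4:**
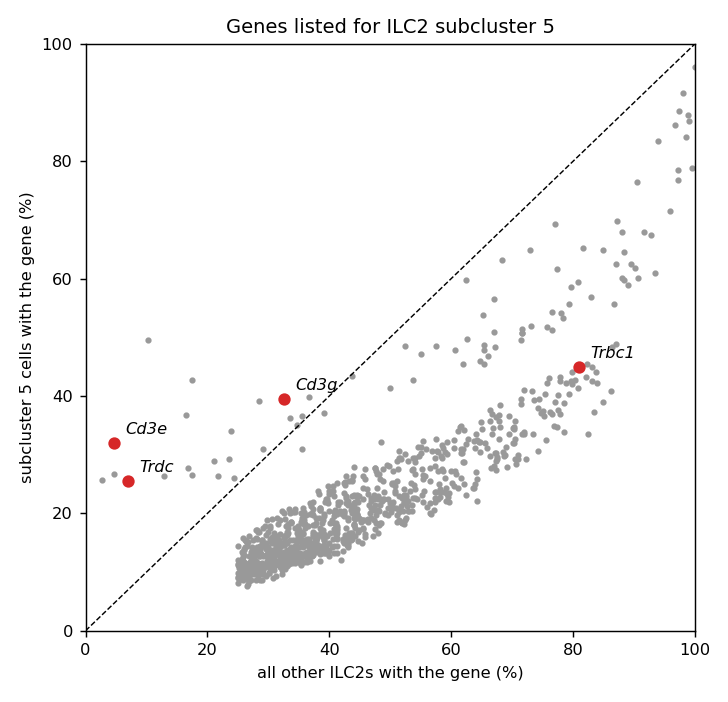
Share of cells with each of the 1000 genes listed for ILC2 subcluster 5, in that subcluster (vertical, percent) against all other ILC2s (horizontal, percent), with equality as a dashed line and members in red. *Cd3e*, *Trdc* and *Cd3g* were among the 22 genes above the line, and *Trbc1* was among the 978 below it.

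The other 4 subclusters listed 1 or 2 members each. Subcluster 6 listed *Cd3g* at 46.1% against 32.4% and *Trbc2* at 88.0% against 81.5% (7.23% of all genes). *Trbc2* was also listed for subcluster 1 at 86.1% against 80.7% (13.8%) and for subcluster 2 at 87.2% against 80.6% (4.98%). Subcluster 7 listed *Trbc1* at 86.5% against 79.5% (10.3%). In these 5 listings the share was larger inside, by 5.4 to 13.7 points, as for nearly all genes of subclusters 1, 2, 6 and 7, which had 0, 0, 0 and 1 listings with a smaller share inside. Over all subcluster listings that share was 29.4%, and 978 of these 1102 listings were in subcluster 5. Over all ILC2s the solved shares were 79.6% for *Trbc1* and 81.78% for *Trbc2*, 32.89% for *Cd3g*, 7.721% for *Trdc* and 5.758% for *Cd3e*. In this table the beta constant genes were found in most ILC2s, and *Cd3e* and *Trdc* in few. In the cell type table, at least 65.2% and 42.0% of the ILC2 types had *Cd3e* and *Trdc*. The paper reported little *Cd3g* or *Tcrg-C1* expression in ILC2s beside gamma delta T cells, and no TCRg in ILC2s by flow cytometry. An expression level is not a share of cells, so the shares given here do not test this.

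**Figure D5:**
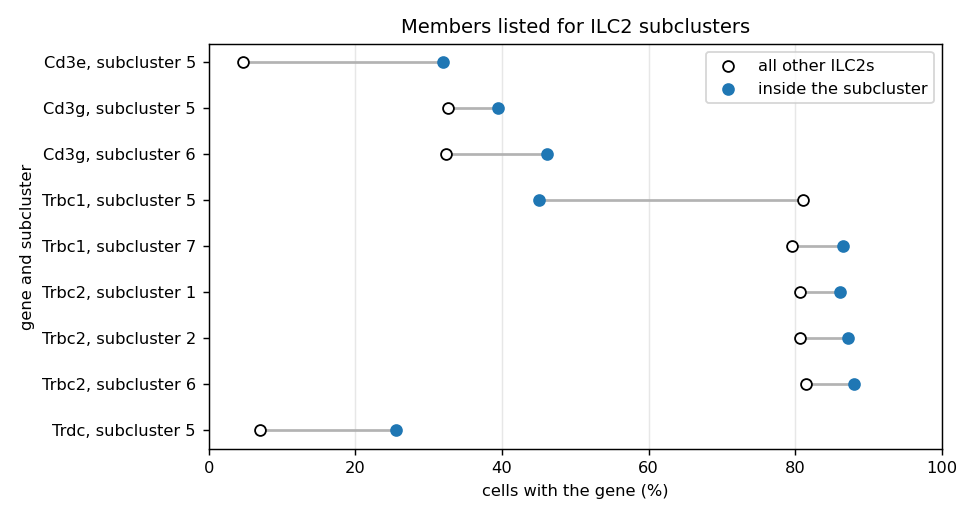
Shares of ILC2s with a member inside a subcluster (blue) and in all other ILC2s (white), in percent, for the 9 listings of the subcluster table. *Cd3e* and *Trdc* were low outside subcluster 5, and *Trbc1* in subcluster 5 was the 1 listing with a smaller share inside.

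For the CD3 chains and *Trbc2*, the genes listed for the most similar sets of types were other members, and for *Trbc1* and *Trdc* they were not. Likeness was the Jaccard index, the clusters in common over the clusters of either gene, over the 21 types. Another measure of likeness changed the most alike genes of every member. Each CD3 chain had the index 1.0 with the other CD3 chains and 0.889 with *Trbc2*. *Trac* was most like *Trbc2* (0.75), *Thy1* (0.714) and *Cd3e* (0.667). *Trbc1* was most like *Cd6* (1.0), *Slamf6* (0.875) and *Dnah8* (0.857), and *Trdc* was most like *Tcrg-C2* (1.0), *Trgv2* (0.667) and *Kdm6b* (0.6). Among subclusters the sets were small, and the most alike were *Dgkd*, *Kif13b* and *Arhgap9* for *Cd3g*, *Dnaja1*, *Ddx6* and *H3f3b* for *Trbc1*, and *Ppib*, *Arpc3* and *Eif3f* for *Trbc2*, all at 1.0 and, for the beta genes, among 12 and 16 genes tied.

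The remaining genes of the receptor and its signalling were followed from lists of the pathway by role. *Cd247*, the CD3 zeta chain, was listed for 0 clusters of either table. Of the gamma chain constant genes, *Tcrg-C1* was found in 98.6% of gdT_TypeIII_CD163l1 cells against 53.2%, in 87.0% against 53.4% of gdT_TypeIII_ITGAE and in 62.7% against 53.7% of ILC3. *Tcrg-C2* was listed for the same 4 types as *Trdc*, with 75.3% against 60.2% in gdT_TypeIII_ITGAE and differences of 0.4 to 1.2 points in the other 3. *Tcrg-C4* was found in 64.4% against 57.9% in gdT_TypeI and 62.4% against 58.4% in gdT_Naive. Within ILC2s, *Tcrg-C1* was found in 40.1% of subcluster 6 against 25.5% and 42.0% of subcluster 7 against 25.8%. *Tcrg-C4* was found in 77.5% of subcluster 8 against 52.7%, and was also listed for subclusters 2, 6 and 7. No gamma constant gene was listed for subcluster 5, and the delta variable gene *Trdv4* was listed there with a smaller share inside, 9.9% against 26.6%, as were 97.8% of the genes of subcluster 5. In the cell type table *Trdv4* was found in 91.4% of gdT_TypeIII_CD163l1 cells against 45.2%, in 57.8% of ILC2 against 36.7% and in 61.8% of ILC2_2 against 45.5%.

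The coreceptors were listed for 0 subclusters, and in the cell type table the CD8 genes followed the names of the types more closely than *Cd4*. *Cd8b1* was found in 98.5% of CD8_Naive cells against 61.5% and in 90.6% of CD8_Effector against 62.4%, and *Cd8a* in 85.6% against 61.6% and 74.9% against 62.1%. *Cd8b1* was also listed for gdT_Naive with a smaller share inside, 35.5% against 64.3%. *Cd4* was found in 67.3% of CD4 cells against 54.0% and 64.2% of Treg against 54.2%, and its shares were larger in other types, with 78.4% of Macrophage cells against 53.3% and 77.0% of ILC1_ILC3 against 54.3%. ILC2_2 listed it at 47.8% against 54.6%. All 6 costimulatory and adhesion receptors, 5 of 17 kinases and adapters and 7 of 8 transcription factors were listed for at least 1 type. In ILC2s the numbers were 3, 9 and 4. How many genes were tested cannot be read from the shares, so these counts have no share over all genes beside them and are not read further.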

How the data were processed

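The cells were droplet-based 3' single-cell libraries. Per the labels and the study's methods, the authors aligned reads with Cell Ranger to mm10, removed doublets and dead cells by flow cytometry, excluded cells with few genes and clustered the cells of all libraries in Seurat. No doublet caller was run here, since the tables hold no cells. The deposited fractions, rounded by the authors to 3 decimals, state what part of a cluster's cells and of the cells outside it were above 0 for a gene. The deposited log2 fold changes and p-values are the authors' own comparisons over cells and were not used. No fold change below 0 was listed. The tables hold no value per library.

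The members and gene lists were chosen with earlier results of these data known. The genes named were every member in every cluster that lists it, *Cd247*, the gamma constant genes, the coreceptors, the 3 genes most like each member with ties broken by the difference of shares, and up to 4 examples of other lists, or every listed kinase and adapter for subcluster 5. Those named for subcluster 5 and the genes named in gdT_TypeII were singled out after their values were seen.

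Cluster sizes were solved by least squares from shares inside and outside for genes listed at least 2 times (1045 and 768 genes, RMS residual 0.0233 and 0.0204 points), unconstrained, with sums of 100.1% and 100.2%, and were tested on simulated data. The remaining share of a gene was solved from its all-cell share. Locations are from GENCODE on GRCm38. Alternatives were stricter listings, other size fits and another likeness. Python 3.11.15, numpy 2.4.6, pandas 2.3.3, matplotlib 3.10.9 and Biopython 1.88 were used. The value of 1 marker gene is not reported here.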

Additional observations from a re-analysis of the deposited data

How the results depend on the processing

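No paired analysis was possible because the comparisons lie between clusters of 4 pooled libraries, with 1 library in each group. Counting a listing only where its share inside was at least 10 points above that outside left 31 of the 52 member listings in the cell type table and 3 of 9 in the subcluster table, where 2 of 5 subclusters still listed a member. Without subcluster 5, an alternative chosen after seeing the data, 5 of 9 listings remained. The other 6 alternatives for these counts stayed within 1.5 times. All 72 solved shares of other fits moved by less than their errors, by at most 0.01 points. Of 93 solved sizes, 91 did, and 2 moved by more than 1 SE, that of subcluster 3 to 14.88% with sizes summing to 1 and that of subcluster 4 to 9.211% with genes listed at least 3 times. The share of the shorter list in common, in place of the Jaccard index, changed the 3 most alike genes for all 10 pairs of member and table compared, so those names depend on the measure. The tables give no cell numbers, and no interval for counting error was computed.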
